A study of Homo sapiens with 6 samples.

Results

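MO3.13 is an established human cell line that the study's labels call an oligodendroglioma line, and the 3 arrays described here are those of the untreated cells. They are 3 of the 6 arrays of a study of the hormone and co-receptor Klotho, and the 3 arrays of Klotho-treated cells were not compared with them here. The untreated cells were grown in DMEM with 10% fetal bovine serum, penicillin, streptomycin, glutamine and pyruvate, and 100 ng of total RNA per sample was amplified to biotin-labelled cDNA and hybridised to an Affymetrix human exon array. The labels number the samples as replicates and do not say whether these came from separate cultures, so the spread given below may be technical. As background, MO3.13 is commonly described as a hybrid line made by fusing human rhabdomyosarcoma cells with adult human oligodendrocytes, so no untransformed oligodendrocyte stands beside it in these data.

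Values are log2 signals. Of 22011 probe sets in the deposited table, 14432 were annotated with a single gene symbol, 2408 with several and 5171 were unnamed here. The single-symbol probe sets stood for 14232 genes, and in the 197 genes with more than 1 such probe set the one with the highest mean over the 6 arrays was used. A gene was called bright where it lay above the 75th percentile of all genes on each of the 3 arrays. It was called at the floor where it lay, on each array, at or below the 90th percentile of 281 genes assumed to be silent in this line (220 olfactory receptors, 19 bitter taste receptors, 34 keratin-associated proteins and 8 beta-defensins). All other genes were called middling. Because probe sets differ in how strongly they respond to the same amount of RNA, a band places a signal and not a number of molecules. With 1 group and no contrast, nothing was tested.

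The 3 arrays gave like values. The median signal of all genes was 6.66, 6.56 and 6.61 on control arrays 1, 2 and 3, and the correlation across genes between pairs of arrays was 0.993, 0.994 and 0.995 (genes are not independent replicates). The bright line stood at 8.16, 7.96 and 8.05 and the floor line at 5.02, 5.15 and 5.08. Bright genes numbered 3304 (23.2% of 14232), middling genes 7536 (53% of the same) and floor genes 3392 (23.8% of the same). A further 528 genes passed the bright line on only 1 or 2 arrays, 561 were at or below the floor line on only 1 or 2 arrays, and 0 genes were bright on 1 array and at the floor on another. The median SD over the 3 arrays was 0.12 for all genes, 0.13 for bright, 0.12 for middling and 0.11 for floor genes. Among the silent reference, 239 of 281 genes were at the floor, 42 were middling and 0 were bright, with KRTAP5-1, a keratin-associated protein of hair, highest at 7.88. A middling signal is therefore not by itself a sign of a transcript.

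**Figure D1:**
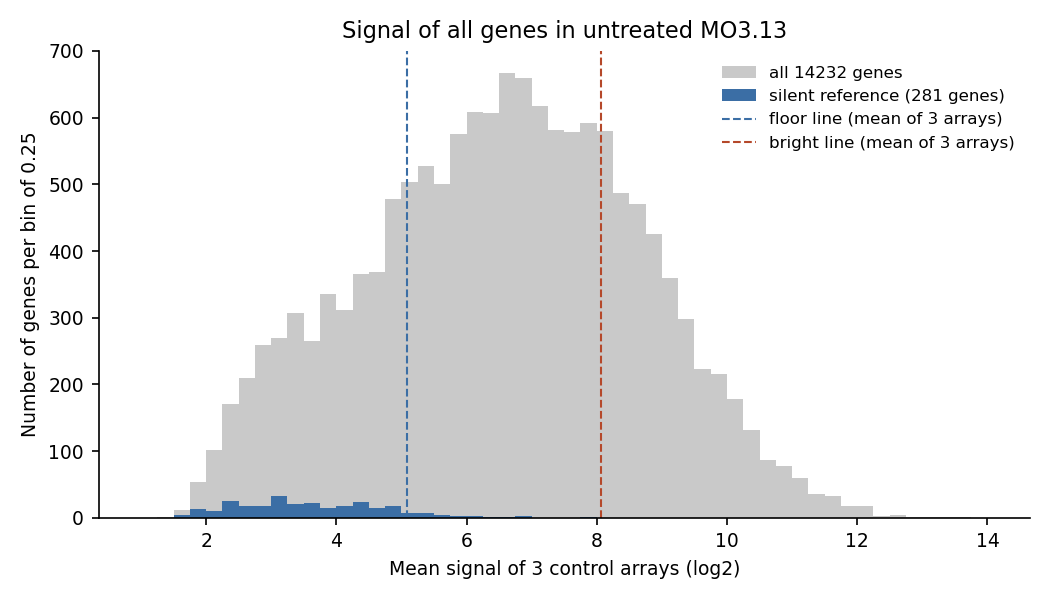
The histogram shows the mean log2 signal of the 3 control arrays (x axis) for all 14232 genes in grey and for the 281 silent reference genes in blue, as the number of genes per bin (y axis), with dashed lines at the mean floor and bright lines. The silent reference lies mostly left of the floor line, with a median of 3.47, and the genes as a whole have a median of 6.61.

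Skeletal muscle forms from myoblasts, precursor cells in which factors of the MyoD family bind a short DNA element, the E-box CANNTG, as dimers with widely expressed E proteins, and switch on the genes of the contractile apparatus and of the synapse with the motor nerve. Rhabdomyosarcoma is a tumour whose cells enter this programme without completing it. Oligodendrocytes are the glial cells that wrap axons of the central nervous system in myelin. They arise from precursors marked by the transcription factors OLIG2 and SOX10, and when mature they make large amounts of myelin proteins such as MBP and MOG.

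In the lists used here, genes of developing muscle were frequently bright in the untreated cells and genes of oligodendrocytes were not. The lists were chosen with earlier results of these data known, so their shares are descriptions and not a test. Of 56 measured genes in the lists of myogenic regulators, embryonic and fetal sarcomere, and myoblast surface and neuromuscular junction, 26 were bright (46.4%, against 23.2% of all genes), 25 middling and 5 at the floor (8.93%, against 23.8% of all genes). Their median signal was 7.92, 7.85 and 7.86 on the 3 arrays, where all genes had 6.66, 6.56 and 6.61. Of 44 measured genes in the myelin and the oligodendrocyte precursor lists, 2 were bright (4.55%), 27 middling and 15 at the floor (34.1%). That floor share rests on where the floor line lies, since with the line at the 75th percentile of the silent reference 7 of the 44 genes (15.9%) and 16.1% of all genes were at the floor. Their median signal was 5.50, 5.68 and 5.60, below that of all genes on each array. The 2 lists differed at the floor, with 47.8% of the myelin list there and 19.0% of the precursor list, the latter below the 23.8% of all genes. Whether the cells fit the label of an oligodendrocyte tumour line was not tested, since no other cells stand beside them here. They are called by the name of the line only.

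The myogenic regulators divided between bright and dim members. MYOD1, the myoblast-determining transcription factor, gave 9.82, 9.60 and 9.73 on control arrays 1, 2 and 3 (9.72 ± 0.11, SD, n = 3), and all 3 values lay above the bright line. MYOG, or myogenin, which acts later when myoblasts stop dividing, gave 8.20, 8.01 and 8.20, just above the line of each array. MEF2C, a partner of the MyoD family, gave 9.51, 9.35 and 9.32, and TCF12, an E protein, gave 10.53, 10.30 and 10.23. SIX4 (9.40 ± 0.07, SD, n = 3) and EYA4 (8.98 ± 0.13, SD, n = 3), which belong to a factor and cofactor pair upstream of muscle determination, were bright on every array. MEOX2 (9.05 ± 0.10, SD, n = 3), a homeobox factor of the somite, and VGLL2 (8.28 ± 0.14, SD, n = 3), a cofactor of TEAD factors in muscle, were bright as well. MSTN, which encodes the secreted inhibitor of muscle growth myostatin, gave 10.21, 10.28 and 10.50. The other members of the MyoD family were not bright: MYF5 gave 3.30, 3.61 and 3.88, at the floor on each array, and MYF6 gave 5.09, 5.29 and 4.86, on both sides of it. PAX3 and PAX7, the factors of muscle progenitors and satellite cells, were middling at 6.76 ± 0.12 and 5.85 ± 0.16 (SD, n = 3). EYA2 was at the floor (4.28 ± 0.07, SD, n = 3), and the 7 remaining measured members were middling, from 5.75 for MEOX1 to 7.91 for TCF3. The list as a whole had 9 bright, 10 middling and 2 at the floor of 21, and MEF2A, MSC and TBX1 are not analysed here.

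The sarcomere list held 9 bright, 10 middling and 2 floor genes of 21. ACTC1, the actin of heart and of embryonic skeletal muscle, gave 11.70, 11.66 and 11.55. MYL1, a myosin light chain of fast fibres, gave 9.43, 9.67 and 9.73. The troponin subunits of slow fibres were bright together, with TNNT1 at 9.67, 9.43 and 9.60, TNNI1 at 8.51 ± 0.17 and TNNC1 at 8.49 ± 0.17 (SD, n = 3). Their fast-fibre counterparts were middling, with TNNI2 at 7.67 ± 0.07, TNNT3 at 7.03 ± 0.07 and TNNC2 at 6.76 ± 0.30 (SD, n = 3). TPM2, a tropomyosin (8.85 ± 0.22, SD, n = 3), and DES, the muscle intermediate filament protein desmin (8.58 ± 0.09, SD, n = 3), were bright, as were the giant filament proteins nebulin (NEB, 8.38 ± 0.06, SD, n = 3) and titin (TTN, 8.37 ± 0.26, SD, n = 3). ACTA1, the main actin of adult skeletal muscle, was middling at 7.01, 6.89 and 6.98. MYBPC1, the slow-fibre myosin-binding protein, was at the floor on each array at 3.53 ± 0.05 (SD, n = 3), and so was the M-band protein MYOM3 at 4.99 ± 0.06 (SD, n = 3). MYH3, MYH8, TNNT2 and TPM3 are not analysed here.

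The surface and synapse list had the largest bright share of the 3 muscle lists, with 8 of 14 genes bright, 5 middling and 1 at the floor. Its members include the subunits of the fetal acetylcholine receptor, the channel that answers the motor nerve. CHRNA1 (alpha subunit) gave 11.74, 11.54 and 11.73 and stood at the percentile 99.6 of all genes. CHRND (delta) gave 9.83, 9.68 and 9.80, and CHRNG, the gamma subunit that adult muscle replaces, gave 8.71, 8.65 and 8.80. MUSK, the receptor kinase that organises the receptor clusters, gave 9.30, 8.99 and 8.84, whereas its partners RAPSN and DOK7 were middling at 7.53 ± 0.06 and 6.69 ± 0.08 (SD, n = 3). CDH15, or M-cadherin, an adhesion protein of myoblasts (8.49 ± 0.09, SD, n = 3), FGFR4, an FGF receptor of myoblasts (8.65 ± 0.13, SD, n = 3), SGCB, a sarcoglycan (8.29 ± 0.07, SD, n = 3), and NES, the intermediate filament protein nestin (8.69 ± 0.15, SD, n = 3), were bright. NCAM1, which marks myoblasts and neural cells, was middling at 6.26 ± 0.02 (SD, n = 3), and MET, the receptor of migrating muscle precursors, was at the floor at 4.11, 4.07 and 3.98. CHRNB1, CHRNE, LRP4, MYMK, SGCD and DAG1 are not analysed here.

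Genes of mature muscle were dimmer as a list. Of 21 measured genes of adult skeletal muscle, 3 were bright (14.3%, against 23.2% of all genes) and 15 middling. The other 3 were at the floor (14.3%, against 23.8% of all genes). The median of the list was 5.90, where all genes had 6.61. The bright members were ENO3 (muscle enolase, 8.97 ± 0.19, SD, n = 3), PYGM (muscle glycogen phosphorylase, 8.84 ± 0.15, SD, n = 3) and ATP2A1 (the calcium pump of fast fibres, 8.37 ± 0.10, SD, n = 3). CASQ1 (4.57 ± 0.23, SD, n = 3), CKMT2 (4.49 ± 0.06, SD, n = 3) and MYOT (3.77 ± 0.20, SD, n = 3) were at the floor. The myosin genes MYH1, MYH2, MYH4, MYH7 and MYLPF are not analysed here. Of 11 measured heart genes 0 were bright, although the homeobox factor NKX2-5 lay beside the line at 8.08 ± 0.06 (SD, n = 3) without passing it on every array, and of 7 smooth muscle genes 0 were bright.

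A few bright muscle genes with a single listed start are shown by their promoters, since the E-box is the element through which MyoD factors act. Each run of 300 bases covers 250 bases before to 50 after the start of the gene, from RefSeq on GRCh38.p14, read 5′ to 3′ along the gene's strand, with every CANNTG in capitals. The positions are chr2:174764423-174764722 (minus strand) for CHRNA1, chr1:203085963-203086262 (minus) for MYOG, chr2:190062680-190062979 (minus) for MSTN and chr19:55149157-55149456 (minus) for TNNT1.
CHRNA1: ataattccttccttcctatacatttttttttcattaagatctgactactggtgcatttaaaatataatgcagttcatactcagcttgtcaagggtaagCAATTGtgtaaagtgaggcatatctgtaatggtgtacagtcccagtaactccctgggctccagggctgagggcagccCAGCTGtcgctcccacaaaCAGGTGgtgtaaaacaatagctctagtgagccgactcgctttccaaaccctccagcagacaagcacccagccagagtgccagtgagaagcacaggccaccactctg
MYOG: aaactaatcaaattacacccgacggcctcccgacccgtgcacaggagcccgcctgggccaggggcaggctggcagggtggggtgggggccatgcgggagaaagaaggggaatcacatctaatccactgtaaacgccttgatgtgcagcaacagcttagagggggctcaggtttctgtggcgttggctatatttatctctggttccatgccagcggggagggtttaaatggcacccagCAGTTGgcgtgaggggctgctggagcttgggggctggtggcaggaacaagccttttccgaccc
MSTN: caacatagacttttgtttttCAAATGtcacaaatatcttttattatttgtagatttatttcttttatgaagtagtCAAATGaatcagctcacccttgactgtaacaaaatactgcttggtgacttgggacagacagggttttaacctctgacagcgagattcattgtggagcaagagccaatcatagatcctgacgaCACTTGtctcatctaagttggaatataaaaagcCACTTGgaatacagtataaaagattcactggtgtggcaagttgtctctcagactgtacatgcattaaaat
TNNT1: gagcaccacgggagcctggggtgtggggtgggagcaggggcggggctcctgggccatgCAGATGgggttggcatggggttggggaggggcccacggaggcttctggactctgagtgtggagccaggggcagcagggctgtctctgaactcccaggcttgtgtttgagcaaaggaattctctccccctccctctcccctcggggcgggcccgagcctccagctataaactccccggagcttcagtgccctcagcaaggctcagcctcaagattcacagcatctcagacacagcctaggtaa
CHRNA1 held 3 matches, MYOG 1, MSTN 4 and TNNT1 1. Such matches are common, since 68.7% of the 35116 promoters in the RefSeq table held at least 1, so they are a description of the letters and not of bound sites. MSTN and TNNT1 also held TATAAA.

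Among myelin and mature oligodendrocyte genes, 1 of 23 was bright, 11 were middling and 11 at the floor (47.8%, against 23.8% of all genes). The bright gene was CNP, the myelin-associated cyclic nucleotide phosphodiesterase, at 8.89, 8.72 and 8.88 on the 3 arrays. MBP, myelin basic protein, gave 5.16, 5.44 and 5.19, and MAG, the adhesion protein of the innermost myelin layer, gave 5.22, 5.40 and 5.34. Both lay just above the floor line of each array. MOG, a protein of the outer myelin surface, gave 4.68, 4.38 and 4.69, all at the floor. UGT8, the enzyme of the myelin lipid galactosylceramide (4.01, 3.96 and 4.01), OPALIN, a membrane protein of mature oligodendrocytes (3.19, 3.34 and 3.65), and ASPA, which splits N-acetylaspartate (2.03, 1.96 and 2.05), were at the floor too. TF, transferrin, was the dimmest at 2.15, 1.83 and 1.70. MYRF, the transcription factor of myelination, was middling at 6.03, 6.12 and 6.13, CLDN11, the tight junction protein of myelin, at 6.42, 6.58 and 6.79, and S1PR5, a sphingosine phosphate receptor, at 7.83, 7.64 and 7.63. MOBP, ERMN and NIPAL4 are not analysed here.

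The precursor list had 1 bright gene of 21, 16 middling and 4 at the floor (19.0%, against 23.8% of all genes). PCDH15, a protocadherin, was bright at 9.21, 8.93 and 8.86. SOX10 gave 5.90, 6.20 and 5.90, OLIG1 5.72, 6.15 and 5.96, and OLIG2 5.41, 5.41 and 5.38, all middling and all below the median of all genes on each array. NKX2-2, which acts with OLIG2, gave 4.88, 5.14 and 5.26, on both sides of the floor line. CSPG4, the NG2 proteoglycan of precursor cells, was middling at 6.31, 6.24 and 6.13, and VCAN, the matrix proteoglycan versican, at 7.95, 7.85 and 7.95. PTPRZ1, a receptor phosphatase of precursors (2.99, 3.17 and 2.98), SOX5 (3.57 ± 0.11, SD, n = 3), ST8SIA1 (4.67 ± 0.06, SD, n = 3) and TNR (4.77 ± 0.12, SD, n = 3) were at the floor. NEU4, a sialidase, was the least even of the list at 5.12, 6.17 and 5.30. PDGFRA and GPR17 are not analysed here.

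For contrast with the muscle promoters, those of a floor gene and of the bright gene of the myelin list are shown in the same way, at chr6:29656842-29657141 (plus strand) for MOG and chr17:41966545-41966844 (plus) for CNP, which has 2 listed starts of which the first by position is printed.
MOG: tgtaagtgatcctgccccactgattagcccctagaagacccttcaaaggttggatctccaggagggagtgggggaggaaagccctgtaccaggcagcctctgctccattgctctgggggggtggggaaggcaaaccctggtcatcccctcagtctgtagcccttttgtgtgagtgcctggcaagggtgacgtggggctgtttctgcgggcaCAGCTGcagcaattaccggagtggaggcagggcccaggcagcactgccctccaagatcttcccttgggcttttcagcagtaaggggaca
CNP: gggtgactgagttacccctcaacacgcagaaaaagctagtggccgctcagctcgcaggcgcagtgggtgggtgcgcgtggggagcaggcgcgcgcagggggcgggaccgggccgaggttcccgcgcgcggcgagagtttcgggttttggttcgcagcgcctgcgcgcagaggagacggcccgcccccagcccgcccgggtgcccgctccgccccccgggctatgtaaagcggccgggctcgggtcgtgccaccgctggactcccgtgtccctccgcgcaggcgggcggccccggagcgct
MOG held 1 CANNTG and a ratio of observed to expected CpG of 0.115. CNP held 0 matches and a ratio of 0.984 in the printed run, against 1 match and 0.373 at its other start.

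**Figure D2:**
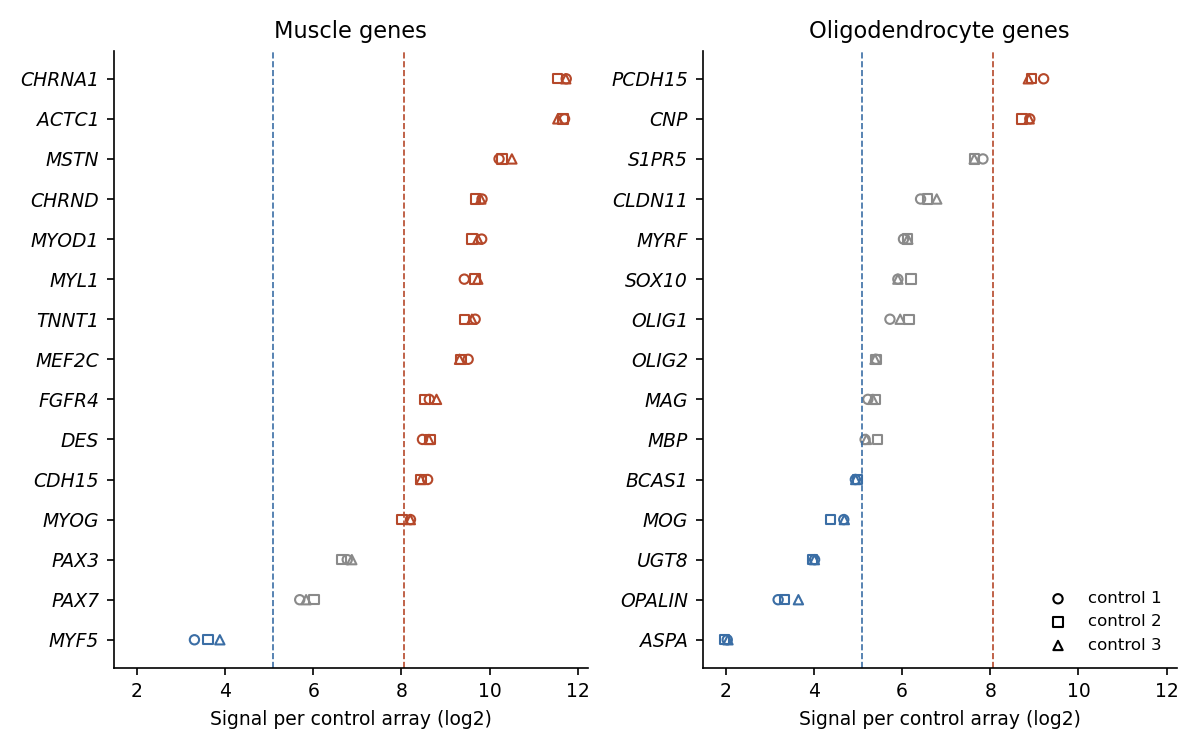
Log2 signal (x axis) of 15 muscle genes (left) and 15 oligodendrocyte genes (right) on control arrays 1, 2 and 3 (circle, square, triangle), coloured by band (red bright, grey middling, blue floor), with dashed lines at the mean floor and bright lines. From CHRNA1 down to MYOG the muscle genes lie right of the bright line, and among the oligodendrocyte genes PCDH15 and CNP do. The genes shown were picked by hand from the lists, so the panels do not give the bright shares. Over the whole lists, 26 of 56 developing muscle genes (46.4%) and 2 of 44 oligodendrocyte genes (4.55%) were bright.

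Lists of the other lineages held at most 3 bright genes each, apart from mesenchyme, whose bright share was near the 46.4% of the developing muscle lists. Of 22 mesenchyme and fibroblast genes 10 were bright (45.5%, against 23.2% of all genes), 9 middling and 3 at the floor (13.6%, against 23.8%). They included VIM, the intermediate filament protein vimentin (11.51 ± 0.02, SD, n = 3), SPARC, a matrix glycoprotein (11.25 ± 0.10, SD, n = 3), SNAI2, a repressor of epithelial genes (10.73 ± 0.07, SD, n = 3), FN1, fibronectin (10.24 ± 0.05, SD, n = 3), and COL1A2, a chain of type I collagen (9.86 ± 0.28, SD, n = 3). FAP (2.25 ± 0.08, SD, n = 3), POSTN (2.29 ± 0.11, SD, n = 3) and DCN (3.85 ± 0.07, SD, n = 3), markers of fibroblasts, were at the floor. Of 38 collagen genes 9 were bright (23.7%), 22 middling and 7 at the floor, a bright share near that of all genes.

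The astrocyte and neuron lists had larger floor shares than all genes (23.8%), and the neural stem list did not. Astrocyte genes had 0 bright members of 16 and 6 at the floor (37.5%), with AQP4, the astrocyte water channel, at 3.04 ± 0.12 and SLC4A4, a bicarbonate cotransporter, at 3.06 ± 0.14 (SD, n = 3). Neuronal genes had 3 bright of 20 and 9 at the floor (45.0%). The bright ones were the ubiquitin hydrolase UCHL1 (11.24 ± 0.12, SD, n = 3), the filament protein INA (8.29 ± 0.15, SD, n = 3) and neuronal enolase ENO2 (8.19 ± 0.10, SD, n = 3). SLC17A6, the vesicular glutamate transporter, was at 3.00 ± 0.10 and ELAVL4, an RNA-binding protein of neurons, at 3.05 ± 0.16 (SD, n = 3). Of 12 genes of neural stem cells 3 were at the floor and 3 were bright (25% each, near the shares of all genes), and their median was 6.78, where all genes had 6.61. The bright ones were LIN28B, an inhibitor of let-7 maturation (9.33 ± 0.27, SD, n = 3), PROM1 (8.22 ± 0.04, SD, n = 3) and NES, which is in the muscle list too. Of 10 neural crest and Schwann cell genes the neurotrophin receptor NGFR was the bright one, at 9.31 ± 0.05 (SD, n = 3), and 1 gene was at the floor.

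The next lists are to be read against 23.2% bright and 23.8% at the floor over all genes. In the blood and microglia list 8 of 13 genes were at the floor (61.5%), with PTPRC, the pan-leukocyte CD45, at 2.52 ± 0.07 (SD, n = 3). LAPTM5, a lysosomal protein of blood cells, was bright at 11.16 ± 0.06 (SD, n = 3) and CD68, another lysosomal protein, at 8.32 ± 0.06 (SD, n = 3). The epithelial list had 2 bright genes of 14 (14.3%), the paired keratins KRT8 (10.34 ± 0.15, SD, n = 3) and KRT18 (8.80 ± 0.06, SD, n = 3). At the floor were 5 of the 14 (35.7%), among them the adhesion proteins EPCAM (2.53 ± 0.07, SD, n = 3) and CDH1 (3.53 ± 0.09, SD, n = 3). Liver genes were at the floor in 11 of 12 (91.7%) and pluripotency and germ cell genes in 7 of 8 (87.5%). Melanocyte genes were there in 5 of 6 (83.3%) and endothelial genes in 5 of 11 (45.5%), and 0 genes of these 4 lists were bright. Of 9 cancer-testis genes 6 were at the floor (66.7%). MAGED2 (10.19 ± 0.12, SD, n = 3) and MAGED1 (9.25 ± 0.09, SD, n = 3), which many normal tissues express as well, were bright (22.2%, near the share of all genes).

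**Figure D3:**
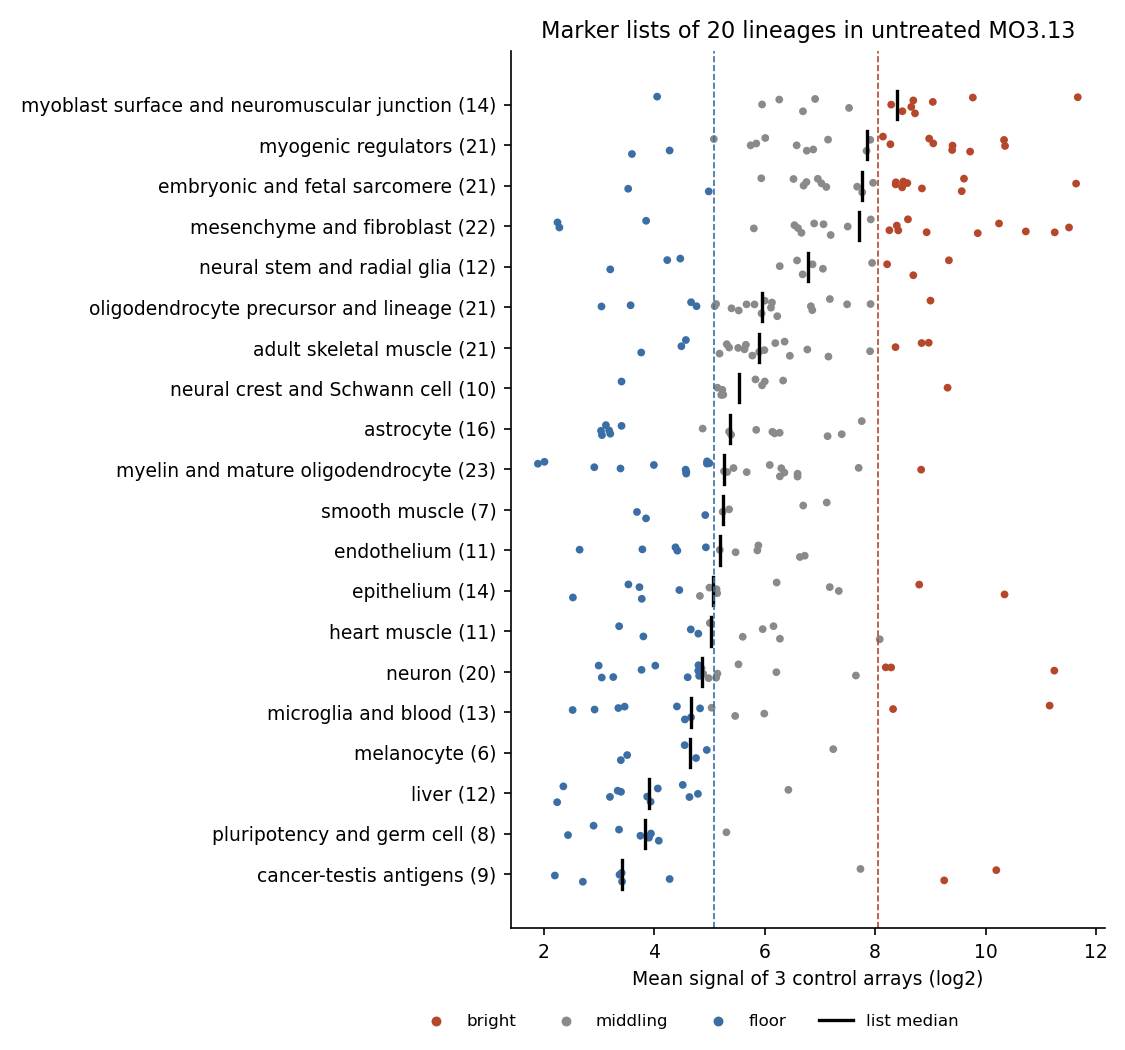
Each point is the mean log2 signal over the 3 control arrays (x axis) of a measured gene in one of 20 lineage lists (y axis, number of measured genes in brackets), coloured by band, with a black bar at each list's median and dashed lines at the mean floor and bright lines. The 3 developing muscle lists and the mesenchyme list have medians between 7.71 and 8.39, and the myelin list has a median of 5.26.

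The brightest signals belonged to the general machinery of a growing cell. HSPA8, the constitutive chaperone of the cytosol, gave 13.55, 13.54 and 13.48, LDHA, lactate dehydrogenase A, 13.43, 13.40 and 13.35, and HSP90AA1, a heat shock protein, 13.10, 13.03 and 12.95. ENO1 (12.91 ± 0.06, SD, n = 3), ACTG1 (12.71 ± 0.06, SD, n = 3), ACTB (12.69 ± 0.26, SD, n = 3) and LDHB (12.63 ± 0.12, SD, n = 3) followed. The 30 brightest genes also held 3 histone genes, H1-4 (12.09 ± 0.10, SD, n = 3), H2BC14 (12.01 ± 0.08, SD, n = 3) and H3C3 (12.01 ± 0.15, SD, n = 3), the amino acid transporter SLC38A2 (12.11 ± 0.12, SD, n = 3) and RRM2, the ribonucleotide reductase subunit that supplies DNA synthesis (11.99, 11.96 and 12.06).

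Of 356 genes in 12 machinery lists 260 were bright (73.0%, against 23.2% of all genes), 85 middling and 11 at the floor (3.09%, against 23.8%). The bright count was 16 of 17 chaperones, 14 of 15 heterogeneous nuclear ribonucleoproteins, 25 of 27 mitosis genes, 25 of 29 proteasome genes, 16 of 19 cytoskeleton genes and 24 of 29 replication genes. It was 47 of 65 mitochondrial ribosomal proteins, 23 of 33 translation factors, 11 of 16 glycolysis genes, 39 of 62 genes of oxidative phosphorylation and 16 of 30 cytosolic ribosomal proteins. Cholesterol synthesis had the lowest share, 4 of 14, with SQLE, the squalene epoxidase, at 9.54 ± 0.18 and EBP, a sterol isomerase, at 4.94 ± 0.08 (SD, n = 3). Among cell cycle genes PTTG1 (securin, 11.41 ± 0.15, SD, n = 3), TOP2A (topoisomerase II, 11.21 ± 0.17, SD, n = 3), CCNB1 (cyclin B1, 11.14 ± 0.05, SD, n = 3) and MCM6 (a subunit of the replicative helicase, 10.76 ± 0.10, SD, n = 3) were bright on every array.

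The 11 machinery genes at the floor show what that band can hold. Some, such as RPL10L and COX7B2, are paralogues of core genes, and others are core genes. TPI1, an enzyme every glycolytic cell needs, gave 3.11, 2.92 and 3.02, EIF2S2, a subunit of initiation factor 2, 3.08, 2.76 and 2.52, and RPS29, a ribosomal protein, 3.97, 3.69 and 4.30. All 3 serve basic processes of the cell, so a floor signal is not a measure of absence, for the myelin genes as for these. TUBA1B, an alpha-tubulin, was the least even gene outside the floor band, at 6.09, 2.67 and 2.00 on control arrays 1, 2 and 3. It was middling through array 1 alone, since the other values lay below the floor line. VPS37C (5.13, 2.31 and 5.31) and KIAA0232 (5.47, 2.84 and 5.68) were low on array 2 alone. An SD above 0.5 was seen in 135 genes (0.949%), of which 2 were bright.

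**Figure D4:**
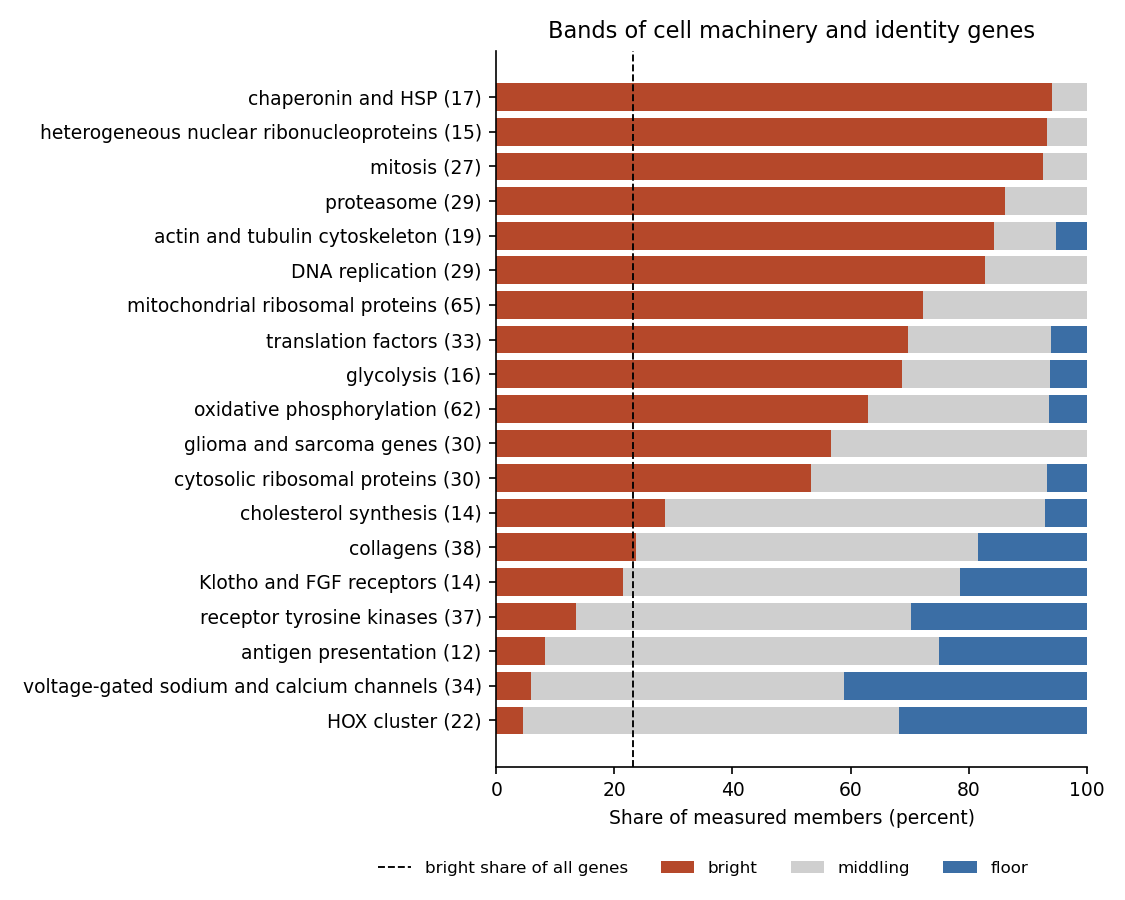
Stacked bars give the share of measured genes (x axis, percent) that were bright, middling or at the floor in 12 machinery lists and 7 identity lists (y axis, number of measured genes in brackets), with a dashed line at the bright share of all genes, 23.2%. Chaperones reach 94.1% bright and the HOX genes 4.55%.

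Among growth-control genes of glioma and sarcoma, 17 of 30 were bright (56.7%, against 23.2% of all genes), 13 middling and 0 at the floor (against 23.8%). The kinase CDK6 (11.06 ± 0.03, SD, n = 3) and its partner cyclins CCND2 (9.98 ± 0.08, SD, n = 3), CCND3 (9.90 ± 0.08, SD, n = 3) and CCND1 (9.21 ± 0.12, SD, n = 3) were bright, as was RB1, the protein they act on (9.64 ± 0.30, SD, n = 3). IGF2BP1 (10.58 ± 0.09, SD, n = 3) and HMGA2 (9.79 ± 0.02, SD, n = 3), oncofetal genes, and MYC (9.36 ± 0.06, SD, n = 3) were bright too. The cell cycle inhibitors CDKN1A (7.84 ± 0.17, SD, n = 3), CDKN2B (7.47 ± 0.06, SD, n = 3) and CDKN2A (7.15 ± 0.20, SD, n = 3) were middling. Among the genes altered in oligodendroglioma, IDH1 (8.90 ± 0.07, SD, n = 3), IDH2 (8.43 ± 0.15, SD, n = 3) and FUBP1 (9.73 ± 0.09, SD, n = 3) were bright and CIC was middling (6.70 ± 0.07, SD, n = 3); signals of this kind say nothing of mutations.

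Of 37 receptor tyrosine kinases 5 were bright (13.5%, against 23.2% of all genes), 21 middling and 11 at the floor (29.7%, against 23.8%). The bright ones were EPHA7 (9.16 ± 0.13, SD, n = 3) and EPHA2 (8.16 ± 0.09, SD, n = 3), receptors for ephrins, FGFR4, the collagen receptor DDR2 (8.60 ± 0.12, SD, n = 3) and MERTK (8.12 ± 0.08, SD, n = 3). KIT (2.98 ± 0.03, SD, n = 3) and ROS1 (2.69 ± 0.04, SD, n = 3) were the dimmest. Klotho and its paralogue, the co-receptors of the endocrine FGFs, were at the floor, with KL at 3.86, 3.77 and 4.12 and KLB at 4.41, 4.75 and 4.54. Of the FGF receptors FGFR4 was bright (8.63, 8.54 and 8.79), FGFR1 (7.47, 7.22 and 7.31) and FGFR3 (6.14, 6.26 and 6.15) were middling, and FGFR2 (4.88, 4.75 and 4.76) was at the floor. The adapter GRB2 (9.59, 9.25 and 9.42) and the phosphatase PTPN11 (9.04, 8.93 and 8.74), which carry the signal from the receptor, were bright. The adapters GAB1 (6.80 ± 0.14, SD, n = 3) and FRS3 (6.10 ± 0.18, SD, n = 3) were middling. Of the 14 measured genes of the Klotho and FGF receptor list 3 were bright (21.4%, near the 23.2% of all genes).

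HOX genes, which record position along the body axis, had 1 bright, 14 middling and 7 floor members of 22 (4.55% bright and 31.8% at the floor, against 23.2% and 23.8% of all genes). Only 1 of them belongs to cluster A, against 8 of cluster B, 6 of C and 7 of D, so cluster A is hardly covered. HOXB2 was bright (8.85 ± 0.10, SD, n = 3), and the next were HOXB13 (7.89 ± 0.23, SD, n = 3) and HOXD13 (7.34 ± 0.08, SD, n = 3). In antigen presentation B2M, the light chain of class I molecules, was the bright gene of 12 (10.32 ± 0.22, SD, n = 3), and the class II chain HLA-DRA (4.07 ± 0.19, SD, n = 3) and CD74 (4.85 ± 0.15, SD, n = 3) were at the floor. Of 34 voltage-gated sodium and calcium channel genes 2 were bright (5.88%, against 23.2% of all genes), CACNA2D1 (8.37 ± 0.06, SD, n = 3) and SCN9A (8.33 ± 0.07, SD, n = 3). At the floor were 14 of them (41.2%, against 23.8%).

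Bands differed in promoter composition, a property that the choice of genes did not use. Promoters rich in the dinucleotide CpG are typical of widely expressed genes and promoters with a TATA element of tissue-restricted ones. The RefSeq table matched 11385 of 14232 genes, and the values are means over a gene's listed starts. The median ratio of observed to expected CpG was 0.858 in bright, 0.769 in middling and 0.354 in floor genes, and 0.391 in floor genes outside the silent reference. A ratio of at least 0.6 was reached by 87.8% of bright, 71.2% of middling and 31.7% of floor genes. TATAAA on either strand was held by 5.55% of bright, 6.71% of middling and 17.8% of floor promoters, against 8.91% over all measured genes and 11.5% of all 35116 promoters in the table. GGGCGG, on either strand, was held by 69.9%, 66.8% and 32.8% in the same order, against 59.9% over all measured genes and 45.0% of the whole table.

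Bright muscle genes had a lower median CpG ratio than bright genes as a whole. In the 20 bright developing muscle genes with a listed promoter the median CpG ratio was 0.427 and 30% reached 0.6, against 0.858 and 87.8% of all bright genes. TATAAA was held by 19.2% of their promoters, and CANNTG occurred 1.44 times per promoter, against 1.13 over all genes, 1.42 in floor genes and 1.58 in the silent reference. CAGCTG, one of the E-box sequences, was held by 15.6% of their promoters and by 18.3% over all genes. The low ratio was not particular to the bright members. Over all 37 developing muscle genes with a listed promoter the median ratio was 0.491, with TATAAA in 21.2% and CAGCTG in 27.3%. The 35 oligodendrocyte genes with a listed promoter had a median ratio of 0.599 and CAGCTG in 27.1%, where the median ratio of all genes was 0.754. CHRNA1 had a ratio of 0.180, MSTN of 0.206, TNNT1 of 0.230 and MYOG of 0.429. The machinery lists had a median of 0.872. With 20 bright muscle genes and no test, these values are descriptions.

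**Figure D5:**
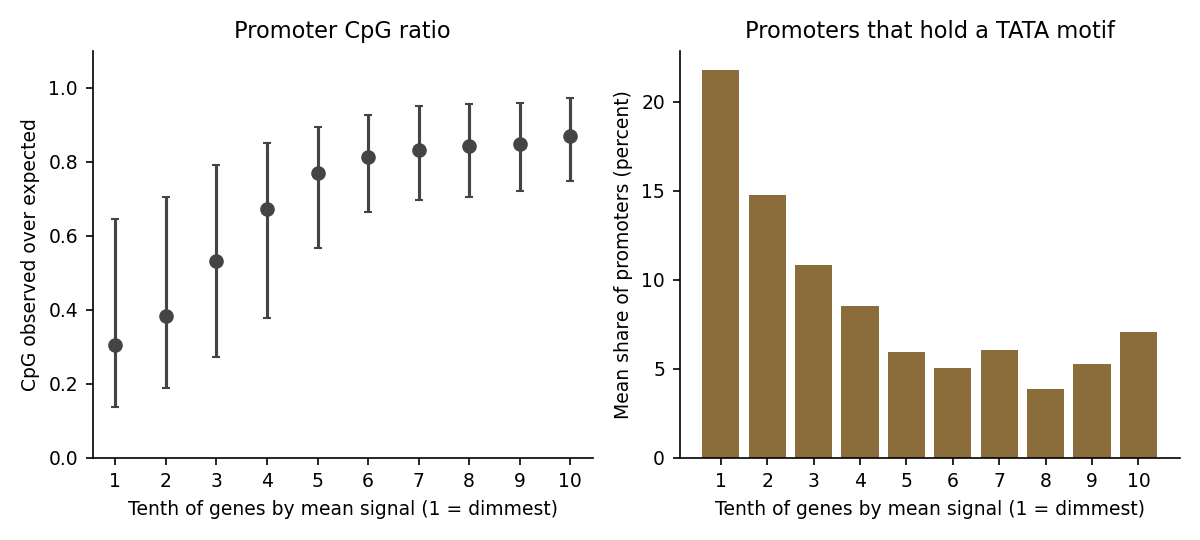
Genes with a listed promoter were divided into 10 equal groups by mean log2 signal over the 3 control arrays (x axis, 1 = dimmest). The left panel gives the median ratio of observed to expected CpG with bars for the middle range from lower to upper quartile, which goes from 0.304 to 0.869, and the right panel the share of promoters that hold TATAAA (percent), 21.8% in the dimmest group and 7.04% in the brightest.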

How the data were processed

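The values are log2 signals that the authors deposited in the series table, made with RMA (background correction, normalization between arrays and summary of probes) per the submitters' processing notes, which give no version. RMA makes the distributions of arrays alike, so it can hide a shift of all genes. Genes were named from GEO's platform annotation, and probe sets with several symbols or none were left out. The 3 columns of untreated cells were read, and the treated columns entered only the choice of probe set in genes with several. Bands, list counts, SDs and promoter composition were computed with Python 3.11.15, pandas 2.3.3 and numpy 2.4.6. Only the band rule and the choice of probe set were checked on simulated data. The simulated bands lay well apart, and the floor line there was the highest value of the simulated silent genes. That check therefore says nothing of genes near a line. No test was run. With 3 arrays, each SD is itself imprecise. Members and gene lists were chosen with earlier results of these data known. Gene lists matched by symbol pattern kept paralogues of core genes, such as RPL10L and COX7B2. Genes named were the 30 brightest, the 10 least even outside the floor band, any member of the muscle regulator, sarcomere, myelin, precursor, Klotho, HOX, glioma and sarcoma, and receptor kinase lists, and up to 5 of the brightest and 3 of the dimmest of other lists. The surface and synapse genes beyond that number were named after their values were seen. Promoters came from RefSeq on GRCh38.p14, matched by Entrez number. Alternatives changed the probe set rule, the lines, the arrays and the scaling.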

Additional observations from a re-analysis of the deposited data

How the results depend on the processing

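Over 12 settings 964 values were recomputed, of which 905 kept to within the limit set for them, 59 moved and 0 reversed. With the bright line at the 90th percentile of genes, 1291 genes, 10 developing muscle genes and 0 oligodendrocyte genes were bright, and with a looser line (31.6% of all genes bright) 4 oligodendrocyte genes were. With the floor line at the 75th percentile of the silent reference, 7 oligodendrocyte genes (15.9%) were at the floor, where all genes had 16.1%. The larger floor share of the pooled oligodendrocyte lists was thus not seen there. The line itself makes these changes. Leaving out each array in turn gave 3370 to 3393 bright genes, with 26 developing muscle and 2 oligodendrocyte genes bright each time. In every setting run, the bright share was above that of all genes for the muscle lists and below it for the oligodendrocyte lists. The CpG ratio over genes with 1 listed start only, an alternative chosen after seeing the data, covered 8199 of 11385 genes and gave a difference of 0.572 between the medians of bright and floor genes, against 0.504 over all starts. No paired analysis was possible because 1 group is described and no test compares groups. The number of arrays, probe set response and signal near the floor limit what can be said of dim genes.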

Other observations

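Gene families were also picked by symbol pattern after the data were seen, and some of their members stand in the lists above. They are to be read against 23.2% bright and 23.8% at the floor over all genes. Of 9 SRSF splicing factors 7 were bright, with SRSF9 at 11.86 ± 0.07 (SD, n = 3) and SRSF1 at 11.45 ± 0.11 (SD, n = 3), as were 13 of 17 nucleoporins, among them NUP93 (10.85 ± 0.03, SD, n = 3), and 10 of 13 genes of condensin and cohesin, among them RAD21 (10.91 ± 0.10, SD, n = 3). DDX and DHX helicases were bright in 24 of 42, RAB GTPases in 18 of 48, DNAJ co-chaperones in 12 of 33 and kinesins in 9 of 30. Numbered ZNF zinc fingers were mostly middling, in 240 of 305, with 21 bright and 44 at the floor. Cytochrome P450 genes had 0 bright members of 35, glutamate and GABA receptor subunits 0 of 27 with 19 at the floor, potassium channels 1 of 81 (KCNQ5, 8.40 ± 0.13, SD, n = 3), and clustered protocadherins 0 of 11 with 9 at the floor.

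Ligand and claudin families had few bright members. SEMA3A, a secreted guidance protein, gave 11.65, 11.58 and 11.49 on the 3 arrays, in a family of 19 semaphorins with 3 bright and 2 at the floor. FGF5 was the bright one of 17 FGF ligands at 9.96, 10.11 and 10.07, WNT5A of 19 WNT ligands at 9.06, 9.02 and 9.24, CXCL5 of 31 chemokines at 9.35, 9.14 and 9.32, and CLDN12 of 18 claudins at 10.63, 10.23 and 10.49. Integrins were bright in 5 of 21 (23.8%, near the share of all genes), with ITGB1, the common beta chain, at 10.87 ± 0.14 (SD, n = 3) and ITGA6, a laminin receptor chain, at 10.08 ± 0.03 (SD, n = 3). Of 301 solute carriers 51 were bright, and SLC38A1 and SLC38A4, relatives of SLC38A2, were among the top of them at 11.71 ± 0.14 and 10.71 ± 0.24 (SD, n = 3).

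By gene type, 24.0% of 13733 protein-coding genes were bright, against 1.58% of 316 long noncoding RNA genes, of which 55.7% were at the floor.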
